A study of Mus musculus with 14 samples.

Results

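The regions described here are places where CTCF was called in every CTCF library of mouse Th1 cells, away from protein-coding gene ends and without an overlapping peak of the acetylated histone mark H3K27ac. The peaks of the 4 CTCF libraries were merged wherever they overlapped by at least 1 bp, which gave 47584 regions, and 25226 of them (53%) held a peak of all 4 libraries and are called constant. A constant region was kept when its midpoint lay more than 2 kb from both ends of every RefSeq protein-coding gene of GRCm38 and when it overlapped no peak in any of the 4 H3K27ac libraries. This left 12524 regions, 49.6% of the constant ones, which are called unacetylated distal CTCF regions below. The regions were thus chosen by measured values, the CTCF and H3K27ac calls, so their CTCF peaks and their lack of H3K27ac are given as a description without a test. They are set against the 3945 constant distal regions that did overlap an H3K27ac peak, called acetylated distal regions, and the 8757 constant regions within 2 kb of a gene end.

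CTCF is a zinc finger protein that binds a long DNA motif and halts the cohesin complex as it extrudes chromatin loops. Its sites mark the anchors of loops and the borders of many topological domains, and a pair of sites can keep an enhancer from acting on genes outside the loop. H3K27ac marks active promoters and enhancers, and ETS1 is a transcription factor of T cells that binds mostly at such elements.

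The KO cells came from a strain labelled C57BL/6J-Ets1-SE-KO, and the WT cells from C57BL/6J mice. Both were naive CD4+ T cells from spleen, stimulated with anti-CD3 and anti-CD28 and cultured for 6 days with IL-12 at 10 ng/mL and IL-2 at 1 ng/mL to give Th1 cells. CUT&RUN, in which a nuclease tethered to an antibody cuts out the DNA around its target, was done for H3K27ac, CTCF and ETS1 with 2 libraries per genotype, and with non-specific IgG for 1 library per genotype. The titles give the 2 KO libraries of an antibody as 2 biological replicates and the 2 WT libraries as technical repeats of 1 biological replicate, although the names of the deposited files number the WT CTCF libraries differently. The spread between the WT libraries may thus be technical only, and a difference between the genotypes cannot be told apart from a difference between animals.

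Read numbers are absent from the deposited peak lists, which leaves the depth behind each list unknown. The CTCF lists held 40502 and 39345 peaks in KO libraries and 33144 and 31368 in WT libraries, and the H3K27ac lists 26465 and 28647 in KO libraries and 24711 and 24581 in WT libraries. The ETS1 lists varied most, with 40705 and 9344 peaks in KO libraries and 14013 and 23419 in WT libraries. All 8 T cell marker genes carried H3K27ac in every library, and 4 to 5 of 6 Th1 markers did in each library, with Cxcr3 the one marker without a peak in any. Ifng, the signature cytokine gene of Th1 cells, had H3K27ac in WT replicate 1 alone (727 bp). None of the 3 NK cell and 5 non-haematopoietic markers had H3K27ac in any library, whereas 2 to 3 of 6 B cell, 1 to 2 of 6 myeloid and 1 of 4 erythroid markers did.

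Sequence was at hand for regions that wholly contained a RefSeq promoter window, the 300 bases around an annotated transcript start. Of 29164 windows that do not overlap each other, 159 lay in 155 of the unacetylated distal regions, 108 of them at lncRNA starts and 51 at starts within protein-coding genes. The distance of more than 2 kb from gene ends holds for the midpoint of the region and was not measured for the window. A core of the CTCF motif was searched on both strands as CCANNAGNNGGC, which reads GCCNNCTNNTGG on the other strand and in which N is any base. The 6 windows with a match and the 2 without one whose regions ranked highest in their weakest CTCF library are shown to let the motif be seen in place. Each stretch has 60 bases, is read 5′ to 3′ on the strand named, comes from RefSeq with the build GRCm38.p6, and has the match in capitals.
Gm38588 lncRNA start, chr7:98481167-98481226, plus strand: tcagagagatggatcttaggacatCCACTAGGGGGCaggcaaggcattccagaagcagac
Gm33663 lncRNA start, chr7:143466474-143466533, minus strand: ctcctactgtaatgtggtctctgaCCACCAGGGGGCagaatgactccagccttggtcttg
Pdzd9 start within the gene, chr7:120670313-120670372, plus strand: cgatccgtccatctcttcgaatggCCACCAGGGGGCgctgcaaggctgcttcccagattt
Gm41414 lncRNA start, chr16:5306750-5306809, plus strand: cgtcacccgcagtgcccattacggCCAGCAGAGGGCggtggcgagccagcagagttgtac
C330018A13Rik lncRNA start, chr5:116123495-116123554, plus strand: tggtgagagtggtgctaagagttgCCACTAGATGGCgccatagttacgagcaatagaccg
Gm41429 lncRNA start, chr16:18696578-18696637, plus strand: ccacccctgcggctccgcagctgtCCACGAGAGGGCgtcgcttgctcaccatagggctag
Zfp286os lncRNA start, chr11:62756690-62756749, plus strand, no match in its window: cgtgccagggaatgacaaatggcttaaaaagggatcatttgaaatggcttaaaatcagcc
B230206L02Rik lncRNA start, chr11:94133326-94133385, plus strand, no match in its window: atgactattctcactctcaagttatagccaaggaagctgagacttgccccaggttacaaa

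Among promoter windows, the core motif was more frequent in those of unacetylated distal regions than in those of any other class of CTCF region. It was found in 36 of 159 windows (22.6%, 95% exact interval 16.4 to 29.9%), against 33 of 500 windows (6.6%, 4.59 to 9.14%) in acetylated distal regions and 194 of 4247 windows (4.57%, 3.96 to 5.24%) in constant regions near a gene end. Windows in CTCF regions not called in all 4 libraries held it in 2.34%, windows outside CTCF regions in 1.76%, and all windows in 2.45%. A stricter form with 2 letters allowed at each free position was found in 17% of the 159 windows and in 0.549% of all windows. The intervals cover counting error only and treat windows as independent. The 37 matches lay a median of 114.5 bp from the midpoint of their region, and 18 of them (48.6%) lay within 100 bp of it.

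The motif difference went with differences in base composition and in the kind of gene. The median GC content of the windows was 54% in the unacetylated distal regions, against 64.7% in acetylated distal regions and 65.7% near gene ends, and the median number of CpG dinucleotides was 8 against 24 and 26. Among lncRNA starts the motif was found in 31 of 108 windows (28.7%, 20.4 to 38.2%) of unacetylated distal regions, against 12 of 142 (8.45%, 4.44 to 14.3%) of acetylated ones. Among starts of protein-coding genes it was found in 5 of 51 windows (9.8%, 3.26 to 21.4%) against 21 of 358 (5.87%, 3.67 to 8.83%), and these intervals overlap. The share that base composition has in the difference was not tested. The ETS motif CCGGAAG, searched on both strands, was found in 5 of the 159 windows (3.14%). It was found in 12.2% of windows in acetylated distal regions, 19.2% near gene ends and 19.6% in CTCF regions not called in all 4 libraries. Among the constant classes the order was thus opposite to that of the core motif. Windows outside CTCF regions held the ETS motif in 3.07%, near the share in unacetylated distal regions, and all windows in 7.92%. The windows are starts of annotated transcripts and make up a small share of the regions, and no match says only that these letters are not in the window.

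**Figure D1:**
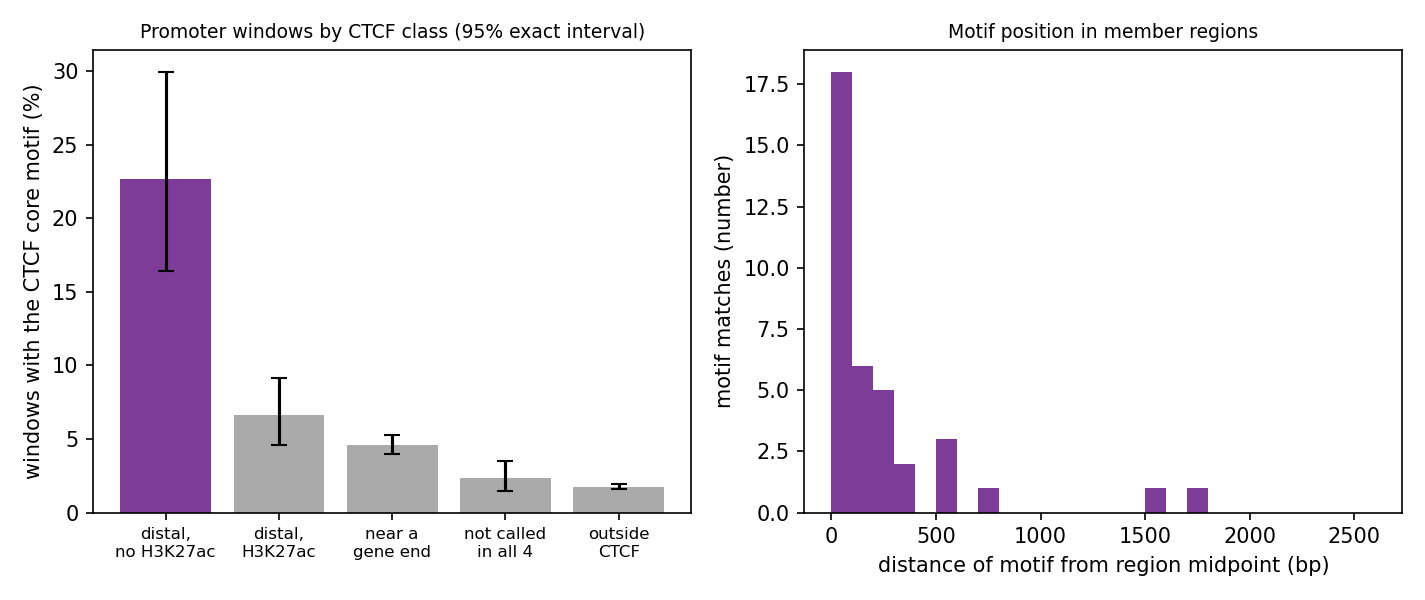
Left, share of RefSeq promoter windows with the CTCF core motif, in percent, by class of CTCF region, with 95% exact binomial intervals; right, distance in bp of the 37 matches from the midpoint of the unacetylated distal region that holds them. The share is 22.6% in unacetylated distal regions, against 6.6% in acetylated ones, and 18 of the 37 matches fall within 100 bp of the midpoint.

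The unacetylated distal regions were shorter than the other constant regions and lay a median of 14.7 kb from the nearest gene end. Their median length was 605 bp (range 176 to 5805 bp), against 807 bp for acetylated distal regions 928 bp near gene ends and 294 bp for CTCF regions not called in all 4 libraries. Protein-coding genes contained 6015 of them (48%, 95% exact interval 47.1 to 48.9%), against 62.3% (60.7 to 63.8%) of acetylated distal regions, where protein-coding genes cover 38.2% of the span from the first to the last gene of each chromosome. That span includes sequence within 2 kb of gene ends, which the rule left out, and the Y chromosome, so the shares are not on like ground. A further 1118 (8.93%) lay in a lncRNA gene outside protein-coding genes, and 5391 lay in neither. The farthest region, chr2:46443777-46444344, lay 1326.62 kb from a gene end, that of Zeb2, a transcriptional repressor. The next farthest lay 1182.69 kb from Gata3, which encodes the master regulator of Th2 cells.

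By chromosome, the autosomes held 5.05 regions per Mb, from 3.63 on chromosome 14 to 7.92 on chromosome 11. The X chromosome held 202 regions, or 1.18 per Mb, and the Y chromosome held none. Acetylated distal regions were also sparse on X, at 0.316 per Mb, where the autosomes ranged from 0.907 on chromosome 3 to 2.85 on chromosome 11. The span of X is 26.8% protein-coding gene, less than that of any autosome. Whether mapping or copy number had a part in the low density on X was not tested.

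The nearest H3K27ac peak lay a median of 28.1 and 26.3 kb from an unacetylated distal region in KO libraries and 29.3 and 29.9 kb in WT libraries. A peak within 5 kb was found for 11.5 and 12.7% of the regions in KO libraries and 10.9 and 10.6% in WT libraries, and the longer KO lists stood nearer in both measures.

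CTCF peaks over the unacetylated distal regions differed little in length between the genotypes. The sequence under CTCF peaks summed to 7.4 and 6.92 Mb in KO libraries and to 7.09 and 6.65 Mb in WT libraries, and the 2 genotypes overlapped. The means were 7.16 ± 0.336 Mb in KO and 6.87 ± 0.314 Mb in WT libraries (SD, n = 2 each), a ratio of 1.04. The same ratio was 1.20 over acetylated distal regions, 1.26 over regions near a gene end and 1.31 over the whole lists. Per region, the median length under peaks was 469 and 450 bp in KO libraries and 453 and 431 bp in WT libraries. Both KO peaks were longer than both WT peaks in 24.4% of the unacetylated distal regions, and both WT peaks were longer in 11.5%. Over acetylated distal regions these shares were 44% and 5.86%, and near gene ends they were 53.2% and 4.1%.

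**Figure D2:**
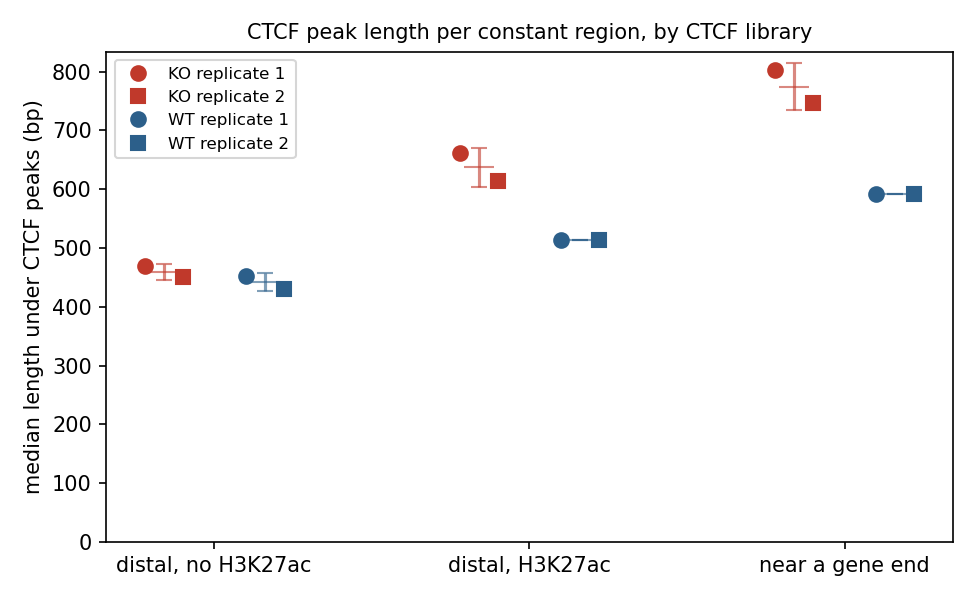
Median length in bp under CTCF peaks per constant region, for each CTCF library, with KO libraries left of WT libraries in each class; horizontal marks and bars show the mean and SD of the 2 libraries. In unacetylated distal regions the KO libraries (469 and 450 bp) and WT libraries (453 and 431 bp) overlap, while in acetylated regions both KO libraries (661 and 614 bp) lie above both WT libraries (513 bp each).

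The authors' fold enrichment, set within each library, had a median of 5.49 and 5.36 over the unacetylated distal regions in KO libraries and of 5.04 and 4.89 in WT libraries. Over acetylated distal regions it was 4.74 and 4.65 in KO libraries and 4.07 and 4.02 in WT libraries. Ranked by q-value within its own list, the median peak of the unacetylated distal regions stood at percentile 68.5 and 67.4 in KO libraries and 66.9 and 64.6 in WT libraries. The acetylated distal regions stood at 62.4 and 60.9 in KO libraries and 51.1 and 49.6 in WT libraries, and constant regions near a gene end at 69.1 and 67.4 in KO libraries and 54.6 and 53.4 in WT libraries. Of the unacetylated distal regions 15.1 and 14.3% were in the top 10% of the list in KO libraries and 14.6 and 13.5% in WT libraries, against 16.5 and 15.8% of acetylated distal regions in KO libraries and 13.2 and 13% in WT libraries. The lists differ in length, and ranks from lists of different length show no change.

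At the edges of the rule, 449 regions had a midpoint 2 to 2.5 kb from a gene end, and their median CTCF fold was 5.17 and 5.11 in KO libraries and 4.75 and 4.76 in WT libraries. The 427 unacetylated constant regions 1.5 to 2 kb from a gene end, just outside it, had 5.34 and 5.37 in KO libraries and 5.01 and 4.86 in WT libraries. A further 2606 distal regions without H3K27ac missed the rule by being called in 3 CTCF libraries, and they were shorter (median 377.5 bp) and weaker (median folds 3.64 to 3.96). The missing library was a KO one for 219 and 303 of them and a WT one for 777 and 1307.

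The region that ranked highest in its weakest library was chr14:7997227-7997699, 2.7 kb from Dnase1l3, which encodes an extracellular nuclease, with folds of 10.9 and 9.56 in KO libraries and 10.7 and 9.56 in WT libraries. The region in Me1, the cytosolic malic enzyme, at chr9:86583757-86584303, had folds of 19.5 and 16.3 in KO libraries and 13.8 and 17.2 in WT libraries. The region in Sorcs2, a sorting receptor of the VPS10 family, had 17 and 14.4 in KO libraries and 14.1 and 13.7 in WT libraries. A region 35.1 kb from Ptpn1, a tyrosine phosphatase that dampens cytokine and insulin signalling, had 15.4 and 14.3 in KO libraries and 11.9 and 12.9 in WT libraries. The other 6 of the 10 top-ranked regions lay in or nearest to Cmss1 and Filip1l, Zfp516, Mtif3, Parp11, Zfp286 and Gucy2g.

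ETS1 was rare on the unacetylated distal regions, and this held in all 4 ETS1 libraries. An ETS1 peak overlapped 9.34 and 0.982% of them in KO libraries and 2.52 and 6.75% in WT libraries. Among all constant CTCF regions the shares were 41.4 and 24.3% in KO libraries and 28.6 and 37.9% in WT libraries, and among acetylated distal regions 60.9 and 29.6% in KO libraries and 39.5 and 59.7% in WT libraries. The unacetylated regions thus had fewer by 51.5 and 28.7 percentage points in KO libraries and 37 and 53 points in WT libraries, a mean difference of −42.5 points (exact two-sided sign permutation over 4 libraries, p = 0.125, the smallest this design allows). With the 2 WT libraries, technical repeats by their titles, averaged to 1 unit, the mean difference was −41.7 points (exact sign permutation p = 0.25, the smallest 3 units allow). Against constant regions near a gene end the mean difference was −62 points, also in the same direction in 4 of 4 libraries (p = 0.125, exact sign permutation). H3K27ac chose the classes, and the libraries rather than the regions are the units of the test.

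Between the genotypes the ETS1 shares on these regions overlapped. The share was 5.16 ± 5.91% in KO libraries and 4.63 ± 2.99% in WT libraries (SD, n = 2 each; exact two-sided permutation p = 1, where the smallest p is 0.333). The 2 libraries of one genotype differed more than the genotypes did, and the share followed the length of the list, being highest in the KO library with 40705 ETS1 peaks and lowest in the KO library with 9344. With the 9344 best-scored ETS1 peaks of each library, the share was 1.24 and 0.982% in KO libraries and 1.31 and 1.66% in WT libraries. Both KO libraries then lay below both WT libraries, with a difference of the means (KO minus WT) of −0.375 percentage points (exact two-sided permutation p = 0.333, the smallest possible). With the full lists, ETS1 was called in both KO libraries and neither WT library on 9 of the regions. It was called in both WT libraries and neither KO library on 38. On acetylated distal regions these counts were 37 and 105, and near gene ends 54 and 42. The shorter list of each genotype limits these counts, and it held 9344 peaks in KO and 14013 in WT libraries. With the 9344 best-scored peaks of each library, acetylated distal regions had shares of 27.1 and 29.6% in KO libraries and 30 and 32.4% in WT libraries. Both KO libraries lay below both WT libraries there as well. The WT libraries are technical repeats by their titles, so these p-values compare libraries and not animals. The ETS1 peaks on the unacetylated distal regions stood at a median percentile of 46.4 and 21.3 in the KO lists and 34.9 and 39.5 in the WT lists, below the middle of each list.

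**Figure D3:**
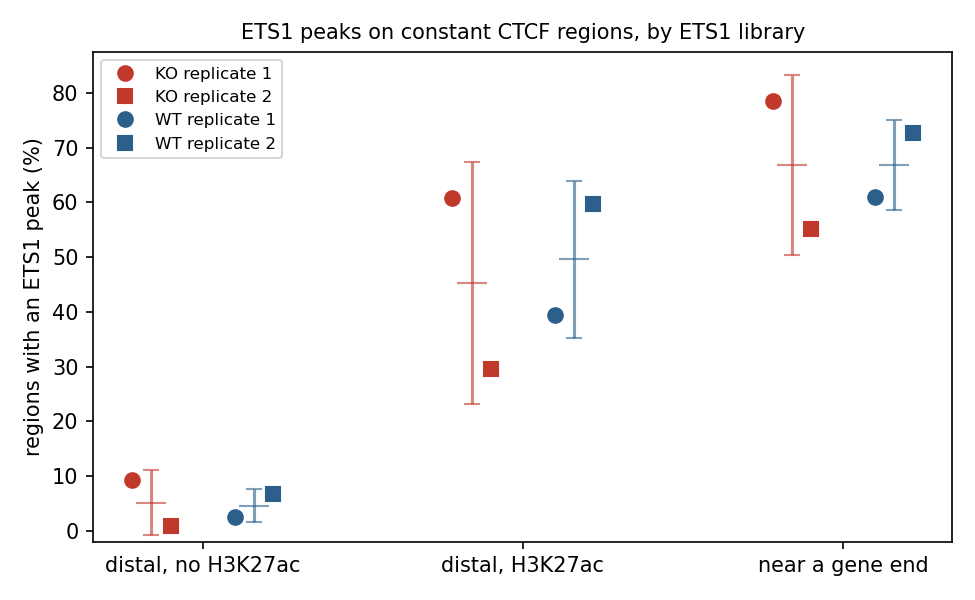
Share of constant CTCF regions with an ETS1 peak, in percent, for each ETS1 library, with KO libraries left of WT libraries in each class; horizontal marks and bars show the mean and SD of the 2 libraries. Unacetylated distal regions lie at 9.34 and 0.982% (KO) and 2.52 and 6.75% (WT), below both other classes in every library.

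Most of the unacetylated distal regions, 10648 (85%), had no ETS1 peak in any library, and 25 (0.2%) had one in all 4. Of the acetylated distal regions 23.1% had none and 20.4% had one in all 4, and of all constant regions 20.4% had one in all 4. ETS1 was more frequent where H3K27ac was called on a constant distal region. With H3K27ac in 1 library (685 regions) the ETS1 shares were 39.6 and 9.34% in KO libraries and 15.2 and 31.5% in WT libraries, and with H3K27ac in all 4 (2307 regions) they were 73.8 and 42.8% in KO libraries and 53.4 and 75.5% in WT libraries. Of the 25, the highest ranked was chr16:57391357-57391676, in Cmss1 and Filip1l, with 273 and 171 bp under ETS1 peaks in KO libraries and 219 and 196 bp in WT libraries. Its CTCF folds were 5.04 and 4.28 in KO libraries and 4.71 and 4.86 in WT libraries. In each library the fold was below the median of the unacetylated distal regions, although its rank by q-value was high. The region near Zdhhc13, chr7:48748989-48750209, had 586 and 534 bp in KO libraries and 557 and 558 bp in WT libraries. Others of the 10 highest ranked lay in Zfp516, Albfm1, Aatk, Trak1, Pde4c and Pigz and near Bace2.

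One of the 25, chr17:39842997-39848801, is the longest of all unacetylated distal regions and overlaps Rn18s-rs5, a pseudogene related to the RNA of the small ribosomal subunit, and the lncRNA gene AY036118. Its CTCF peaks covered nearly its whole 5805 bp at folds of 1.91 and 1.81 in KO libraries and 1.8 and 1.66 in WT libraries, the lowest folds among the named regions. Its ETS1 peaks covered 5797 and 3231 bp in KO libraries and 4296 and 4596 bp in WT libraries. Whether reads from other copies of ribosomal DNA were placed there was not tested.

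An IgG peak overlapped 12 of the unacetylated distal regions (0.0958%) in the KO library and none in the WT library, while 0.832% of all constant regions had one in the KO library. The IgG lists hold 285 peaks in the KO library and 2 in the WT library.

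Neighbouring unacetylated distal regions split the chromosomes into 12504 intervals with a median length of 59.9 kb, of which 2137 (17.1%) were under 10 kb and 444 were over 1 Mb. H3K27ac peaks lay in 6529 of the intervals (52.2%). These had a median length of 110 kb, against 20.6 kb for the intervals without H3K27ac. In the median interval with H3K27ac, the log2 ratio of acetylated length, KO over WT, was 0.17 with 1 kb added to each mean. Both KO libraries were above both WT libraries in 50.4% of these intervals and both WT libraries were above both KO libraries in 8.58%, and the KO lists covered more sequence overall (28 and 28.5 Mb in KO libraries, against 21.8 and 21.3 Mb in WT libraries).

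The interval that holds Ets1 stood out from this pattern. It ran over 505062 bp at chr9:32590382-33095443, held no other protein-coding gene, and had 25241 and 25337 bp of H3K27ac in KO libraries, against 77393 and 73805 bp in WT libraries. The mean was 25289 ± 67.9 bp in KO and 75599 ± 2537 bp in WT libraries (SD, n = 2 each), a log2 ratio of −1.54. No test is given, since H3K27ac calls also set which CTCF regions bound an interval. In this interval 3 constant CTCF regions are no bounds because both WT libraries had H3K27ac on them, while both KO libraries had none. Among the 6529 intervals with H3K27ac it had rank 1 by the difference in bp (KO minus WT, −50310 bp) and rank 5 by the log2 ratio. The next by that difference were those with Sema7a, a semaphorin (7358 bp in KO against 19019 bp in WT on average), Srgap3 (7315 bp in KO against 15791 bp in WT) and Tex2 (5796 bp in KO against 13917 bp in WT).

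Within the Ets1 interval H3K27ac was lower in KO libraries in each of the stretches below, in and above Ets1. The stretch below the gene had 740 and 1397 bp in KO libraries and 3374 and 3671 bp in WT libraries. Ets1 with 10 kb flanks had 24247 and 23354 bp of H3K27ac in KO libraries and 46574 and 44137 bp in WT libraries, and the stretch above it had 254 and 586 bp in KO libraries and 27445 and 25997 bp in WT libraries. The genotypes did not overlap in any of these stretches. The interval also held 5 acetylated distal CTCF regions. On the 3 with H3K27ac in WT libraries alone CTCF was called in all 4 libraries, as at chr9:32940265-32941867, where the CTCF fold was 4.66 and 4.61 in KO libraries and 4.38 and 3.64 in WT libraries. CTCF was also called in all 4 libraries at chr9:32942854-32943085, with folds of 3.91 and 3.03 in KO libraries and 4.42 and 4.03 in WT libraries. Both places lie at the upper end of the WT block of H3K27ac above Ets1. The labels do not give the extent of the deleted sequence, and the presence of DNA in KO cells was not tested. Away from these CTCF peaks, missing H3K27ac and missing DNA cannot be told apart in that block.

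The regions that bound the Ets1 interval were called in both genotypes, at chr9:32589757-32590381 with folds of 5.9 and 5.55 in KO libraries and 5.98 and 5.45 in WT libraries, and at chr9:33095444-33096203 with 4.03 and 3.95 in KO libraries and 3.54 and 3.53 in WT libraries. The neighbouring interval with H3K27ac, chr9:32457116-32582007 in and beside Fli1, another ETS family gene, had 9714 and 9197 bp in KO libraries and 7833 and 8786 bp in WT libraries. The other intervals between the 11 unacetylated distal regions from 32000000 to 34000000 on chromosome 9 had no H3K27ac peak in any library. None of these 11 regions had an ETS1 peak in any library. With peaks limited to those with −log10 q of at least 5, which leaves 5624 and 6551 H3K27ac peaks in KO lists and 4605 and 4398 in WT lists, the interval, then chr9:32592175-33246760, had 2229 and 8313 bp in KO libraries and 8144 and 2162 bp in WT libraries, and its log2 ratio was 0.027. The difference was thus not seen among the most significant peaks.

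**Figure D4:**
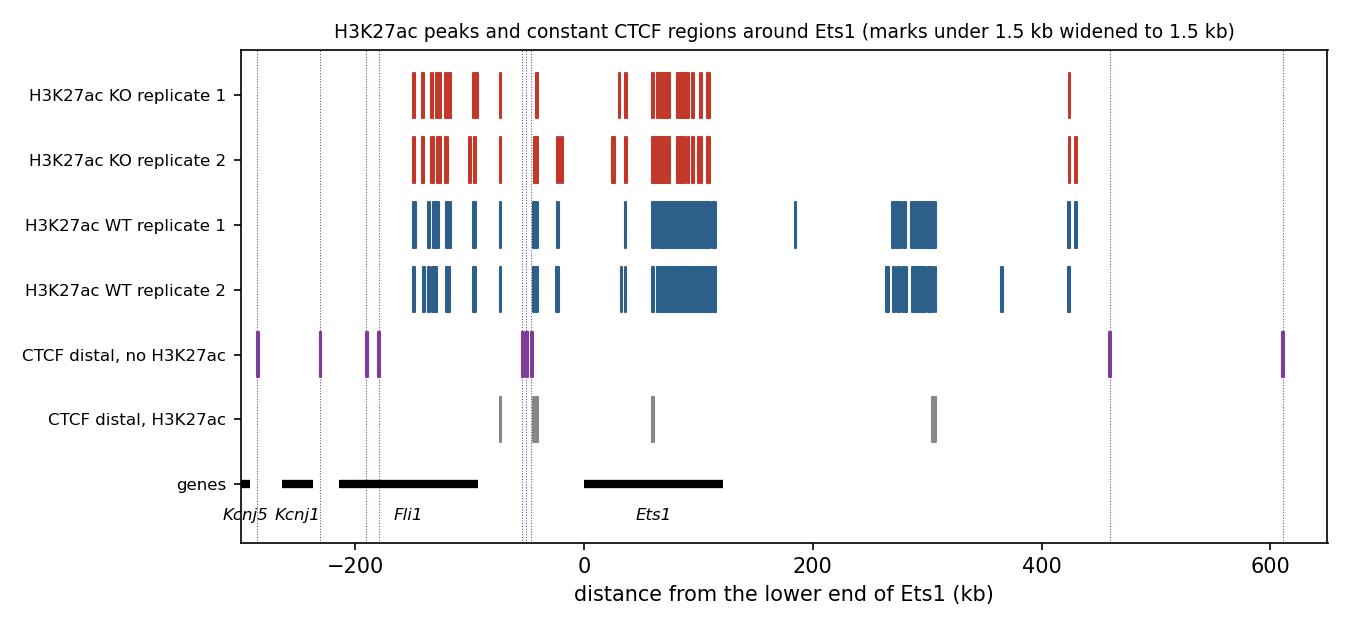
H3K27ac peaks of each library (KO above WT) and constant distal CTCF regions around Ets1, by distance in kb from the lower end of the gene; dotted lines mark the unacetylated distal CTCF regions. The wide block of H3K27ac to the right of Ets1 is present in both WT libraries and absent in both KO libraries, and the acetylated CTCF regions at its right end are not used as bounds because of the WT H3K27ac.

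**Figure D5:**
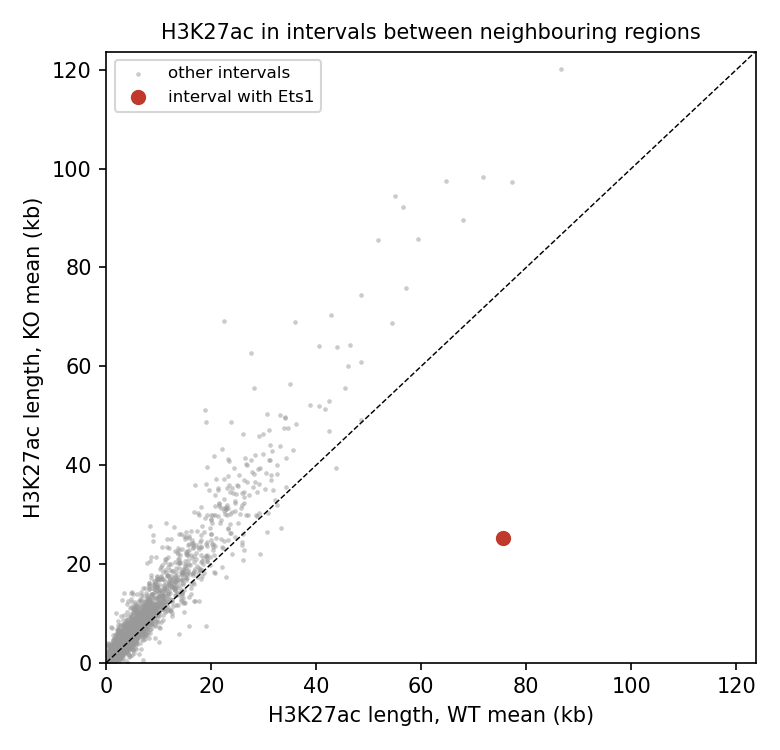
Mean length in kb under H3K27ac peaks in each interval between neighbouring unacetylated distal CTCF regions, KO mean on the vertical and WT mean on the horizontal axis; the dashed line marks equal lengths. The interval with Ets1 has 25289 bp in KO and 75599 bp in WT libraries and lies farthest below the line.

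In the opposite direction, the interval with Btla and Cd200, which encode an inhibitory receptor and a ligand of immune cells, had 76856 and 61421 bp of H3K27ac in KO libraries, against 23031 and 21885 bp in WT libraries. That with Satb1, a chromatin organiser of T cells, had 100217 and 88849 bp in KO libraries, against 56703 and 53320 bp in WT libraries. That with Myc, a growth regulator with far enhancers, spanned 2494810 bp and had 102125 and 82497 bp in KO libraries, against 58745 and 54124 bp in WT libraries. The interval with 8 genes of the Ms4a cluster had 64560 and 60985 bp in KO libraries, against 24831 and 30384 bp in WT libraries. These intervals were picked for their differences after the values were seen.

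Some genes and windows held many unacetylated distal regions. Nav2, a neuronal navigator gene, held 16 of them over 651 kb and had no H3K27ac in any library. Wwox, an oxidoreductase gene at a fragile site, and Gse1 held 10 each, Cdh23, a cadherin of hair cells, and Abr held 9 each, and 2900026A02Rik, Fry, Itpr2, Syn3 and Pde4d held 8 each. Cdh23 lay at the other end from Nav2, with 22780 and 22752 bp of H3K27ac in KO libraries and 26643 and 26332 bp in WT libraries. These genes were ranked by count without regard to their length. Per 100 kb of gene they held from 0.615 regions in Pde4d to 5.93 in 2900026A02Rik, where all chromosomes together held 4.63 per Mb. Of 21887 protein-coding genes, 4020 (18.4%) held at least 1 region.

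The densest 500 kb window, chr5:123000001-123500000, had 19 regions and 12 protein-coding genes, among them Orai1, the pore of the calcium channel of T cells. The window of the major histocompatibility class II genes, chr17:34000001-34500000, had 16 with 24 protein-coding genes, and that with Ikzf3, Nr1d1, Rara and Top2a, chr11:98500001-99000000, had 16 with 21. Of 5418 windows, 2403 had none. The longest interval without an unacetylated distal region was 18.1 Mb on X, with 34 protein-coding genes and 7 CTCF regions of any kind. On autosomes it was 12.3 Mb on chromosome 15, with 9 protein-coding genes, among them Drosha and Cdh6.

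Most genes of T cell subsets had an unacetylated distal region within 100 kb, as did most protein-coding genes. The median protein-coding gene had 2 within 100 kb, and 27.4% of genes had none. All 17 Th1 genes had at least 1 (median 2), among them Ifng with 2, the nearest ones 70.4 kb below and 62 kb above the gene, Tbx21 with 3 and Prf1 with 8. All 8 Th2 genes had at least 1 (median 4), with Il13 3.61 kb from its nearest. Of 6 Th17 genes 4 had at least 1. The cytokine genes Il17a and Il17f had none, with the nearest regions 118 kb below Il17a and 148 kb above Il17f, while Rora held 7 inside. Of 20 developmental genes, 11 had at least 1, and Sox2, Sox9, Pax6 and Zic1 were among those without. Near imprinted genes, Igf2 and Ins2 had 8 each and H19 had 6, the nearest 2.1 kb above H19, the side on which its imprinting control region is known to lie. In the beta-globin cluster, Hbb-bt had 1, and near Myc there was none, the nearest lying 828 kb below it. Of the other lists, 8 of 9 Treg and Tfh genes, 8 of 10 naive T cell genes, 13 of 14 T cell identity genes, both ETS genes, 9 of 11 genes of CTCF and cohesin, 5 of 8 protocadherin and globin genes, 8 of 9 imprinted or X-linked genes and 3 of 5 proto-oncogenes had at least 1. The lists were chosen with earlier results of these data known, and no test is attached to these counts.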

How the data were processed

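CUT&RUN peak lists of 14 libraries were used. Per the submitters' processing notes, the aligner was BWA and the genome build GRCm38. The deposited lists, 1 per library, name their peaks as MACS2 names broad peaks. The caller's settings and any control library were not given in the sources used here. Every list has 9 columns, of which the authors deposited a score, a fold (ratio) of enrichment, a −log10 p and a −log10 q per peak. Within a list, peaks were ranked by −log10 q into percentiles. These per-peak values are the authors'. The lists hold no counts, so the precision that depth gives is unknown. A deeper library can give longer lists and wider peaks.

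Only chromosomes 1 to 19, X and Y were used. Genes, 21887 of them protein-coding, came from RefSeq (GRCm38.p6). Overlap meant at least 1 bp. ETS1 shares were compared by exact two-sided permutation over libraries, and shares of regions or windows carry 95% exact (Clopper-Pearson) intervals. Computations used Python 3.11.15, numpy 2.4.6, pandas 2.3.3 and scipy 1.17.1, and merging and classing were tested on simulated data. As a genome was not used here, the motif search planned for all regions was run on 300-base RefSeq promoter windows wholly inside a region, a change made after the data were seen.

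The regions, gene lists and tests were chosen with earlier results of these data known. Named are the 10 regions with the highest lowest percentile over the CTCF libraries, those from 32000000 to 34000000 on chromosome 9, up to 10 with ETS1 in all 4 libraries and up to 10 with IgG in KO, the 10 densest windows of 500 kb, the 10 longest intervals, the 10 genes with most regions, noncoding genes whose promoter window overlaps a region, and listed genes. The intervals with the greatest H3K27ac differences, the farthest regions and individual listed genes were picked after their values were seen. Alternatives changed the overlap, list length, q-value, distances and libraries.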

Additional observations from a re-analysis of the deposited data

Results flagged for a closer look

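An IgG peak lay on 12 unacetylated distal CTCF regions in the KO library and on 0 in the WT library, in data outside the main measurement. The KO list has 285 IgG peaks and the WT list 2, so most of the difference in number is shared by the whole lists, and the share was lower than in acetylated distal regions (0.0958% against 1.37%). With 1 IgG library per genotype the difference has no replicate. Of the 10 highest ranked of the 12, the region in Samd4 (chr14:47086087-47087709) stood at percentile 99.6 in its weakest CTCF list, and that near Intu stood at 50.8. The others of the 10 lay in Lta4h and nearest to 1600014C10Rik, Chp2, Chst12, Fam43a, Car7, Ubash3b and Snai1.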

How the results depend on the processing

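Requiring −log10 q of at least 5 changed most. It left 5155 regions, 46.1% of them inside protein-coding genes, an ETS1 difference of −0.0097 percentage points (KO minus WT), a difference of 9.04 percentile points in CTCF rank and a log2 ratio of 0.027 for H3K27ac around Ets1, where the sign turned. Fewer peaks remain by construction. A distance of 10 kb from gene ends left 7811 regions. With equal numbers of CTCF peaks per library the difference in rank was 0.0032 percentile points, against 2.16, and with equal numbers of ETS1 peaks the ETS1 difference was −0.38 points, against 0.53 (exact permutation p = 0.333, the smallest possible, with both KO libraries below both WT libraries). Without the third letter of the motif, an alternative added after the data were seen, 34.6% of windows matched, against 8.42% of all windows.

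Leaving out 1 library at a time gave an ETS1 difference of −3.65 points (without KO replicate 1) to 4.71 points (without KO replicate 2), −1.58 points without WT replicate 1, a difference in rank of 1.28 to 3.52 percentile points and a log2 ratio around Ets1 of −1.58 to −1.51. The difference in ETS1 between unacetylated and acetylated distal regions was negative under all 20 alternatives run, the averaging of the WT libraries added after the data were seen among them, from −47.2 to −24.5 points. The other alternatives moved the number of regions by less than 1.5 times. No paired analysis was possible because the genotypes share a single replicate label, the WT libraries being technical and the KO libraries biological replicates. Depth is unknown, so list length and occupancy cannot be told apart.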

Other observations

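Of 1005 miRNA hairpins in the RefSeq table, 7 overlapped an unacetylated distal CTCF region. They were Mir7011, Mir7019, Mir7020, Mir7055, Mir7059, Mir7237 and Mir3086, of which nothing else was measured here.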
